A study of Mus musculus with 12 samples.

Results

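The comparison described here was that of PER2::LUC mouse embryonic fibroblasts (MEFs) treated with deazaneplanocin A (DZ) against control fibroblasts (CTL), 6 of the 12 samples of the series. Its samples were chosen by their labels, 3 dishes with 10 μM DZ for 24 h and 3 dishes without it, and the values described are the differences between both groups for each of 12591 genes, with emphasis on what lies beyond the genes induced by interferon. The cells came from mice heterozygous for PER2::LUC, a knock-in that joins luciferase to PER2, a protein of the circadian clock, on a C57 background, and were immortalized and grown to confluence, so that they stand for a contact-inhibited fibroblast line and not for a tissue. The other 6 samples were dishes of the same cells given adenine (1 mM) or S-adenosylmethionine (SAM, 1 mM) over the same 24 h, 3 of each, and 3.3 mM HCl was present in all 4 groups, CTL included. Polyadenylated RNA was sequenced, and the deposited unit is log2 CPM, the base 2 logarithm of the reads of a gene scaled to the total of its library.

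S-adenosylmethionine donates the methyl groups that methyltransferases place on DNA, histones, RNA, and proteins, and each transfer leaves S-adenosylhomocysteine, which inhibits the same enzymes. AHCY is the enzyme that removes S-adenosylhomocysteine by splitting it into adenosine and homocysteine. DZ is an adenosine analog that inhibits AHCY, and is widely used to lower the histone mark set by the polycomb repressive complex 2 (PRC2).

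The depth was even between the groups, with 45649534 to 49644171 reads on the listed genes in the CTL libraries and 48112727 to 50362332 in the DZ libraries, and no gene had fewer than 46 reads in any library. Replicate dishes were close to each other, as the median over genes of the SD between libraries was 0.0556 in CTL and 0.0531 in DZ, on the log2 CPM scale. Of 15 fibroblast markers, 13 were in the table, whereas the defining markers of endothelial and epithelial cells (0 of 10 each) were not listed and 1 of 15 leukocyte markers (Cd68) was. Of the other marker lists, 2 of 14 muscle and adipocyte markers and 5 of 12 neural markers were present, with a summed CPM of 9.86 to 10.1 in CTL and 12.9 to 14.8 in DZ for the former and of 76.8 to 78.8 and 101 to 106 for the latter. The summed CPM of the fibroblast markers was 26000 to 26500 in CTL and 33200 to 34000 in DZ. In the test described below, 10 of the 13 rose and 1 fell (84.6% called, against 45.9% of all genes). Col1a1, Col1a2, Col3a1, Fbln2, Fn1, and Postn are also on the list of collagen and matrix genes, so the counts of both lists share genes. Nothing in the labels states that the dishes were independent cultures, so p-values measure the spread between these dishes, and fewer cells of a type cannot be told apart from less RNA per cell.

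Changes under DZ were many and mostly small. With limma on the deposited values, at a Benjamini-Hochberg false discovery rate (FDR) under 0.01, 5782 genes differed between DZ and CTL (45.9% of the 12591 tested), 2840 of them higher (22.6%) and 2942 lower (23.4%) in DZ. The median absolute difference of these genes was 0.33 on the log2 scale. Only 240 of them differed by at least 1 (2-fold), 149 higher and 91 lower. Of 128 interferon-stimulated genes measured, 115 were higher and 1 was lower, with a median difference of 0.94, and they made up 61 of the 149 genes that rose at least 2-fold. Without them, 2725 genes were higher and 2941 lower.

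To see which changes set DZ apart, a gene was also required to differ in DZ in the same direction from CTL, adenine, and SAM, with the largest of the 3 p-values adjusted over all genes. This test compares the groups at the concentrations used, which were 100-fold lower for DZ than for the other compounds, and not the compounds at a matched dose. It was passed by 1931 genes (15.3%), 1058 higher (8.40%) and 873 lower (6.93%) in DZ than in every other group. The interferon list accounted for 85 of the 1058 higher genes and for none of the 873 lower ones, leaving 973 and 873 others. Such genes are referred to here as set apart. In 5 equal bins of protein-coding genes by level, 13.9% of the highest bin and 3.20% of the lowest were set apart upward, whereas 6.85% of the highest and 9.09% of the lowest were set apart downward.

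**Figure D1:**
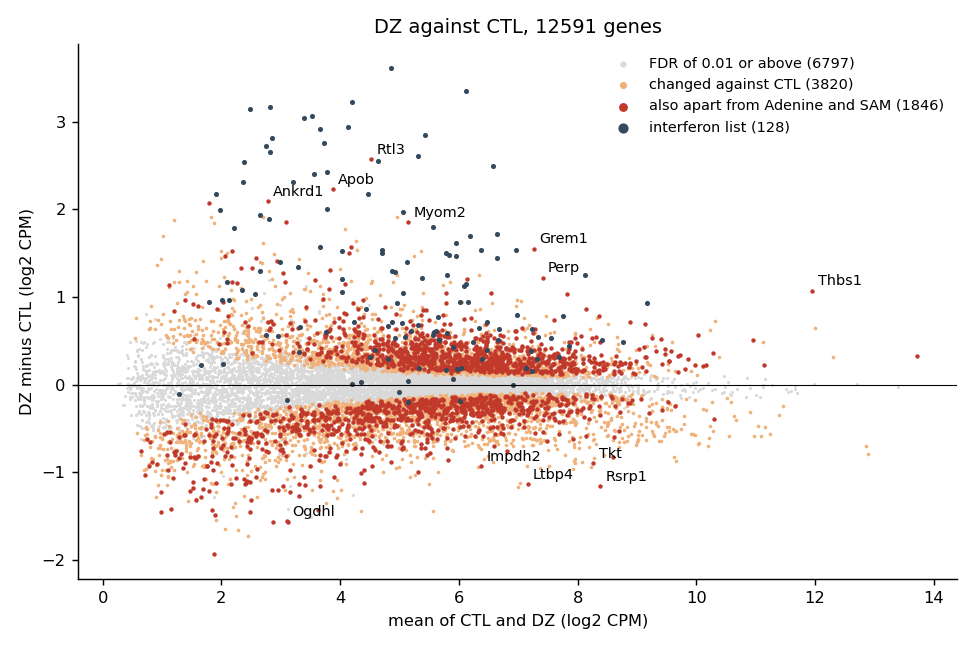
Difference between DZ and CTL (log2 CPM, y axis) against the mean level in both groups (log2 CPM, x axis), one point per gene. The 128 interferon genes (dark) hold most of the highest points, whereas the 1846 other genes that also differed from adenine and SAM (red) lie on both sides of 0, with Rtl3 and Apob at the upper edge and Ogdhl among the lowest.

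Outside the interferon list, the largest rise that set DZ apart was that of Rtl3 (chromosome X, 105880688 to 105884250 of GRCm39), a gene derived from the Gag part of a retrotransposon. Its level was 3.24, 3.20, and 3.26 log2 CPM in the CTL dishes, 5.90, 5.73, and 5.79 under DZ, 3.50, 3.32, and 3.59 under adenine, and 2.53, 2.51, and 2.75 under SAM. The DZ dishes stood alone at the top, 2.57 above CTL on the log2 scale (SE 0.081, 5.95-fold, adjusted p = 3.57e-12 in limma). Apob (chromosome 12, 8027648 to 8066835), which encodes the main protein of low-density lipoprotein, was at 2.78, 2.86, and 2.66 in CTL and 5.04, 5.02, and 4.91 in DZ, a rise of 2.23 (SE 0.082, adjusted p = 1.87e-11). It was also above CTL in the adenine (3.38 to 3.60) and SAM dishes (4.24 to 4.48), but below DZ in each of them.

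Myom2 (chromosome 8, 15107272 to 15183541), which encodes a protein of the M-band of muscle, went in opposite directions. It was at 4.20, 4.36, and 4.08 log2 CPM in CTL and at 6.14, 6.01, and 6.05 in DZ, a rise of 1.85 (SE 0.085, adjusted p = 1.9e-10), whereas adenine dishes measured 1.74 to 1.91 and SAM dishes 1.29 to 1.48. The DZ mean was therefore 4.23 above that of adenine and 4.70 above that of SAM. Ankrd1, a target of the mechanosensitive factors YAP and SRF that was named through its list, its mean level being under 3, was likewise above CTL under DZ alone. It measured 1.79, 1.54, and 1.89 in CTL, 3.71, 3.85, and 3.94 in DZ, 1.10 to 1.19 in adenine, and 1.39 to 1.50 in SAM, a rise of 2.09 (SE 0.11, adjusted p = 5.8e-10).

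Grem1 (chromosome 2, 113576509 to 113589000), a secreted antagonist of bone morphogenetic proteins (BMPs), was at 6.47, 6.51, and 6.47 log2 CPM in CTL and 8.01, 8.05, and 8.03 in DZ, a rise of 1.55 (SE 0.043, adjusted p = 1.18e-12). It was also high under adenine (7.34 to 7.57) and SAM (7.78 to 7.85), the latter only 0.22 below DZ. Thbd, the thrombomodulin gene, rose by 1.57 (3.30 to 3.56 in CTL, 4.88 to 5.02 in DZ), and measured 4.14 to 4.42 under adenine and 3.35 to 3.41 under SAM. Ptprq, a receptor-type phosphatase, rose by 1.86, from 2.12 to 2.23 in CTL to 3.94 to 4.09 in DZ, and was nearly as high under adenine (3.57 to 3.72) and SAM (3.56 to 3.61). Thbs1, which encodes the matrix protein thrombospondin 1 and was named through the matrix list, rose by 1.07 from 11.48, 11.40, and 11.39 to 12.41, 12.60, and 12.48 (SE 0.06, adjusted p = 1.63e-09), with adenine and SAM dishes between 11.54 and 11.95.

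Perp, a membrane protein gene induced by p53, was at 6.75, 6.83, and 6.81 log2 CPM in CTL and 8.17, 7.95, and 7.94 in DZ, a rise of 1.22 (SE 0.054, adjusted p = 1.47e-10), and did not exceed 7.02 in any adenine or SAM dish. Gadd45g, a growth arrest gene, rose by 1.20 (SE 0.048), from 5.46 to 5.63 in CTL to 6.68 to 6.83 in DZ, with adenine (6.10 to 6.22) and SAM dishes (6.30 to 6.37) in between. Xdh, whose enzyme turns hypoxanthine into xanthine and uric acid, was at 2.36, 2.45, and 2.42 in CTL and 3.78, 3.63, and 3.65 in DZ, a rise of 1.27 (SE 0.13, adjusted p = 8.24e-07), against 1.42 to 1.89 under adenine. Ip6k3, an inositol hexakisphosphate kinase gene, rose by 1.17. Tmem140 rose by 1.31, with means of 3.18 in CTL, 4.49 in DZ, 3.27 under adenine, and 3.31 under SAM. It was not on the interferon list, but its promoter holds the core of an interferon-stimulated response element at -12. Whether it belongs with the interferon genes was not tested. Fdx2, a mitochondrial ferredoxin gene for iron-sulfur cluster assembly, rose by 1.50, but with an SE of 0.22, as the CTL dishes lay far apart (2.67, 3.66, and 3.88). Without CTL replicate 1 its rise was 1.13, and its span overlaps 2 annotated genes on the same strand, so its reads are uncertain.

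**Figure D2:**
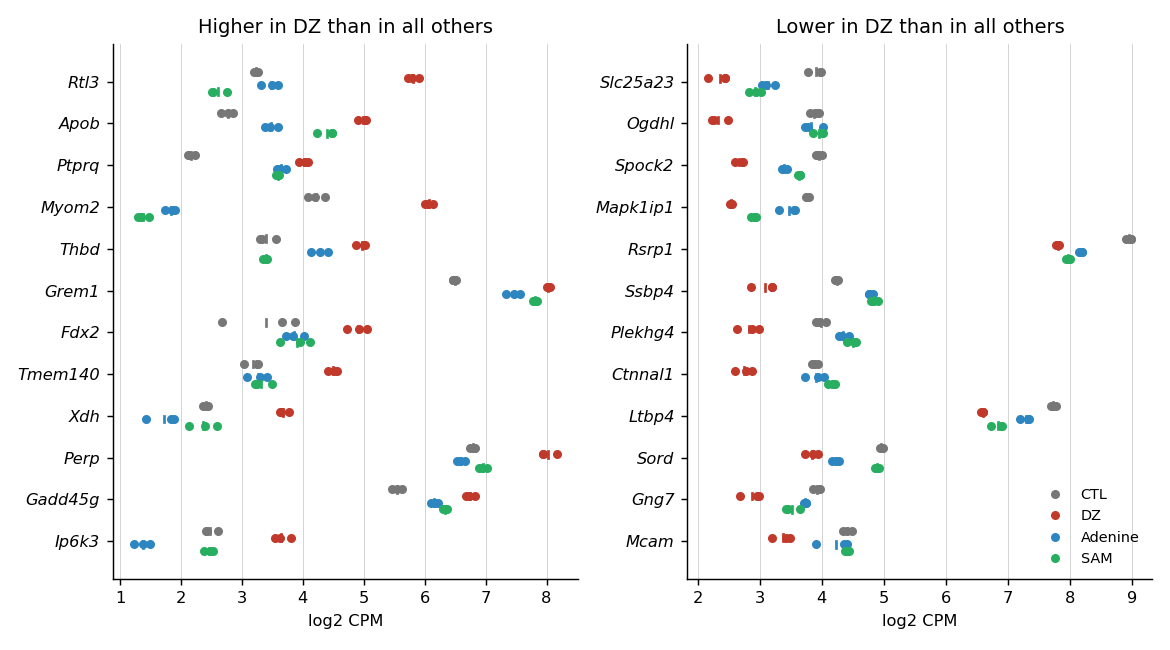
Level (log2 CPM, x axis) of the 12 protein-coding genes with the largest rises (left) and falls (right) that set DZ apart, among genes with a mean of at least 3 in CTL and DZ and interferon genes excluded, so that Ankrd1 and Tnfrsf25, below this mean, are not drawn. Points are single dishes (3 per group), short bars are group means, and in each gene the 3 DZ dishes (red) lie beyond the 3 dishes of every other group.

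Among protein-coding genes averaging 3 log2 CPM or more, the deepest falls that set DZ apart included 2 mitochondrial genes. Ogdhl (chromosome 14, 32043735 to 32071368), a homolog of the 2-oxoglutarate dehydrogenase of the citric acid cycle, was at 3.91, 3.80, and 3.95 log2 CPM in CTL and 2.48, 2.23, and 2.26 in DZ, a difference of -1.56 (SE 0.091, adjusted p = 2.39e-09). Its level was 3.72 to 4.02 under adenine and 3.86 to 4.01 under SAM, overlapping with CTL. Slc25a23 (chromosome 17, 57350705 to 57366905), a carrier of adenine nucleotides and phosphate across the inner membrane, went from 3.78, 3.97, and 3.99 to 2.17, 2.43, and 2.44, a difference of -1.57 (SE 0.095, adjusted p = 3.4e-09). It was lower than CTL under the other treatments too, between 2.83 and 3.25.

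Spock2, a proteoglycan gene, differed by -1.27, from a mean of 3.95 ± 0.042 log2 CPM (SD, n = 3) in CTL to 2.67 ± 0.077 in DZ. Ltbp4, whose product binds latent TGF-β, was at 7.77, 7.70, and 7.73 in CTL and 6.60, 6.60, and 6.57 in DZ, a difference of -1.14 (SE 0.047, adjusted p = 6.32e-11), and lay between these groups under adenine (7.19 to 7.34) and SAM (6.73 to 6.90). Mcam, an adhesion molecule gene, differed by -1.05 and Ctnnal1, which encodes a catenin-like protein, by -1.14.

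Rsrp1 (chromosome 4, 134650860 to 134654982), which encodes an arginine- and serine-rich protein, had the smallest adjusted p of these falls. It was at 8.99, 8.90, and 8.99 log2 CPM in CTL and 7.82, 7.78, and 7.80 in DZ, a difference of -1.16 (SE 0.03, adjusted p = 5.94e-13), although the SAM mean was close (7.97). Sord, the sorbitol dehydrogenase gene, differed by -1.12, Plekhg4 by -1.15, Gng7, a G protein γ subunit gene, by -1.05, Ssbp4 by -1.16, and Mapk1ip1 by -1.23. Ssbp4 and Plekhg4 were higher than CTL under adenine and SAM (means of 4.78 and 4.84 for Ssbp4 against 4.24 in CTL, and of 4.34 and 4.50 for Plekhg4 against 3.98).

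Other large changes under DZ did not set it apart. Fmod, the gene of the collagen-binding proteoglycan fibromodulin, rose by 1.91 (4.10, 3.79, and 4.13 log2 CPM in CTL, 5.84, 5.93, and 5.99 in DZ), and its means were 6.70 under adenine and 6.14 under SAM. Igfbp5, which encodes a binding protein of insulin-like growth factors, rose by 1.77 and had its highest mean under adenine (5.66, against 4.96 in DZ). Apobr, a lipoprotein receptor gene, differed by -1.44 and Zfr2 by -1.30, and both were lowest under SAM (means of 2.31 and 1.94). As these groups are compared with the same CTL dishes, the values are given side by side.

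The genes of the methyl cycle had no common direction. Of 14 measured from a list of 19, 3 rose, 4 fell, and 7 did not pass the test, with a median difference of 0.06 against -0.0057 over all genes. Ahcy, which encodes the target of DZ, was at 7.39, 7.40, and 7.38 log2 CPM in CTL and 7.12, 7.14, and 7.18 in DZ, a difference of -0.24 (SE 0.027, 0.846-fold, adjusted p = 2.69e-06). Its mean was 7.36 under adenine and 7.16 under SAM, and it was not set apart. Mat2a, which encodes the enzyme that makes SAM, differed by -0.30 and was lower still under adenine (mean 7.91, against 8.21 in DZ) and SAM (7.40). Mettl16, which encodes the RNA methyltransferase that acts on the Mat2a transcript, had the largest change of the list. It was at 5.73, 5.72, and 5.71 in CTL and 6.45, 6.44, and 6.50 in DZ, a rise of 0.75 (SE 0.041, adjusted p = 1.39e-09), with means of 5.94 under adenine and 5.93 under SAM, so that it was set apart.

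Among writers, erasers, and readers of m6A (24 measured), 4 rose and 3 fell (29.2% called, against 45.9% of all genes). Mettl3, the catalytic subunit gene of the main m6A writer, rose by 0.46 (SE 0.046, adjusted p = 7.53e-07), from 4.93 to 5.01 in CTL to 5.38 to 5.47 in DZ, and was set apart. Rbmx, an RNA-binding protein gene, fell by 0.94 on the log2 scale and was also low under adenine (mean 4.94, against 5.46 in CTL) and SAM (4.47). Of 13 DNA methylation genes, 3 rose and 2 fell (38.5% called), and none was set apart. Dnmt1, the maintenance methyltransferase gene, was at 6.51 to 6.58 in CTL and 6.55 to 6.67 in DZ. Its difference of 0.08 did not pass the test (adjusted p = 0.161 in limma). Of 28 histone lysine methyltransferase genes, 5 rose and 4 fell (32.1% called, against 45.9% of all genes). Kmt5c, which encodes a writer of H4K20 methylation, was at -0.51, Kmt2e at -0.41, and Smyd5 at 0.27, and all were set apart. Of 20 histone demethylase genes, 4 rose and 4 fell (40.0% called), with 4 set apart upward and 1 downward. Kdm6b, which encodes an eraser of H3K27 methylation, was at -0.49 and was not set apart. Its difference from CTL was -0.35 under adenine and -0.90 under SAM.

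Polycomb genes fell more often than they rose, by small amounts. Of 13 PRC2 genes measured, 7 fell, 1 rose, and 5 did not pass the test, with a median of -0.16. Their called share was 61.5%, against 45.9% of all genes. Ezh2, the catalytic subunit gene, was at 5.53, 5.58, and 5.50 log2 CPM in CTL and 5.30, 5.38, and 5.22 in DZ, a difference of -0.24 (SE 0.044, adjusted p = 3.21e-04). Its means under adenine (6.17) and SAM (6.53) were above CTL, and it was set apart. Epop, which encodes an accessory subunit, had the deepest fall, -0.74 (SE 0.11, adjusted p = 2.82e-05). Suz12 was at 6.58 to 6.66 in CTL and 6.57 to 6.63 in DZ (difference -0.02, adjusted p = 0.713). Eed rose by 0.16 (adjusted p = 0.00399), a call that was lost without CTL replicate 2 or 3 or DZ replicate 2 or 3 (adjusted p of 0.0116 to 0.0252 in limma). Of 19 genes of polycomb repressive complex 1 (PRC1), 9 fell and 3 rose (63.2% called), with a median of -0.14. Cbx6 at -0.30 and Pcgf5 at 0.39 were among those set apart.

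Hox genes, textbook targets of PRC2 that pattern the embryo, also fell. Of 39 in the list, 11 were measured, 10 of them from the Hoxa cluster, and 7 fell, 1 rose, and 3 did not pass the test, with a median of -0.37. Hoxa11 was at 5.74, 5.69, and 5.81 log2 CPM in CTL and 5.29, 5.31, and 5.18 in DZ (difference -0.48, SE 0.051, adjusted p = 1.25e-06), and Hoxa9 differed by -0.37. Hoxa3, named after its value was seen, had the deepest fall of the list at -0.66. Hoxd13, the single gene of the Hoxd cluster in the table, rose by 0.37 (6.54 to 6.56 in CTL, 6.87 to 6.95 in DZ). Of the 11, 6 were set apart downward and 1 upward, against 6.93% and 8.40% of all genes.

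Clustered protocadherins, neuronal adhesion genes that are expressed from alternative promoters, gave the lowest median of any list, -0.59, with 9 of 13 lower and none higher. Pcdhb16 differed by -0.93 (2.18, 2.26, and 2.25 log2 CPM in CTL, 1.32, 1.48, and 1.11 in DZ), Pcdhb18 by -0.88, and Pcdhb20 by -0.59, and 4 members were set apart. The γ isoforms share their last exons and the β genes are close paralogs, so their reads could have been divided in error. Imprinted genes showed no such direction, with 6 of 26 higher and 8 lower (53.8% called, against 45.9% of all genes). Mest, however, rose by 1.43 from 0.17, 0.22, and 0.41 to 1.91, 1.55, and 1.65, and H19 by 0.86. Both reached higher means under adenine (3.42 and 7.33) and SAM (3.57 and 7.05).

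**Figure D3:**
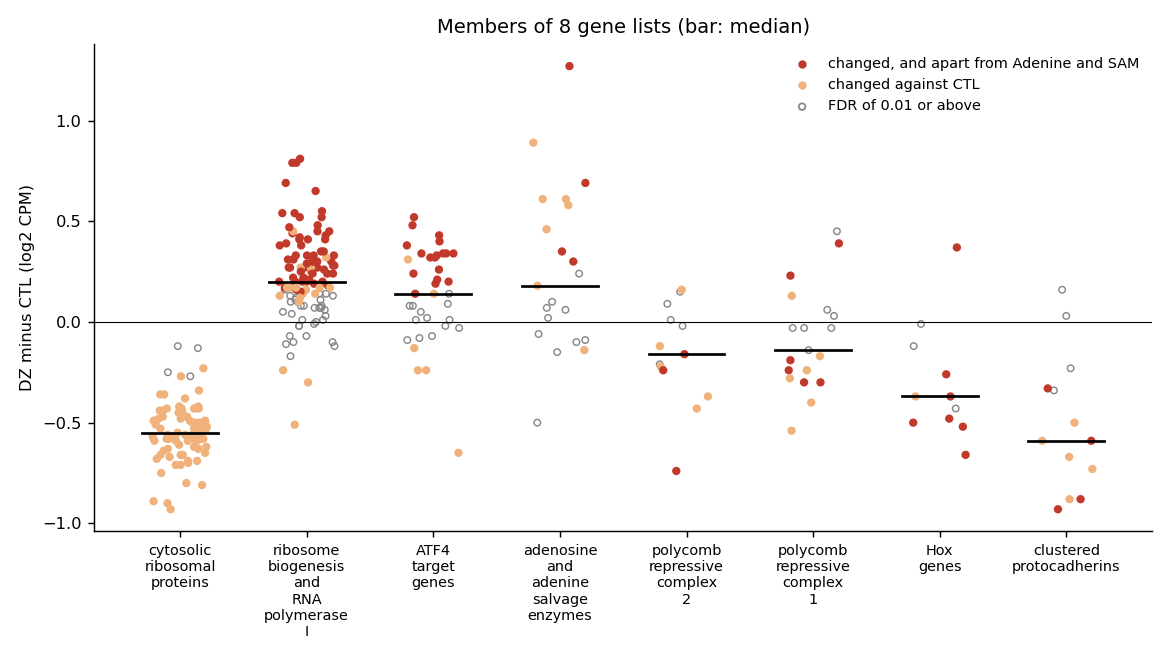
Difference between DZ and CTL (log2 CPM, y axis) for each measured member of 8 gene lists, with list medians as bars. Ribosomal protein genes lie below 0 without being set apart from adenine and SAM (orange), whereas ribosome biogenesis and ATF4 target genes that rose are mostly set apart (red).

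Genes for the turnover of adenosine and other nucleosides rose more often than they fell. Of 21 measured salvage and nucleoside enzymes, 10 rose and 1 fell (52.4% called, against 45.9% of all genes), with a median of 0.18. Pnp, which encodes purine nucleoside phosphorylase, rose by 0.61 (6.17, 6.23, and 6.15 log2 CPM in CTL, 6.77, 6.82, and 6.80 in DZ), Ampd3, an AMP deaminase gene, by 0.61, and Tk1, the cytosolic thymidine kinase gene, by 0.89, none of them set apart. The members set apart, all upward, were Xdh and 3 that were named after their values were seen. These were Ada, the adenosine deaminase gene (0.69), Aprt, which salvages adenine (0.35), and Mtap, which releases adenine from methylthioadenosine (0.30).

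Of 21 genes of de novo nucleotide synthesis, 10 rose and 5 fell (71.4% called, against 45.9% of all genes). Impdh2, which encodes the rate-limiting enzyme of guanine nucleotide synthesis, was at 6.84 ± 0.055 log2 CPM (mean ± SD, n = 3) in CTL and 5.91 ± 0.12 in DZ, the highest DZ dish lying below the lowest CTL dish, a difference of -0.93 (SE 0.056, 0.524-fold, adjusted p = 3.08e-09). It stayed between 6.74 and 6.90 in every adenine and SAM dish. Umps, the last enzyme of uridine monophosphate synthesis, rose by 0.76 (SE 0.04, adjusted p = 8.98e-10) and was set apart as well. Polyamine genes split evenly, with 5 of 15 higher and 5 lower (66.7% called, against 45.9% of all genes). Of this list, 46.7% was set apart, against 15.3% of all genes. Odc1 and Amd1, which encode the decarboxylases that feed polyamine synthesis, rose by 0.63 and 0.41, Sms, the spermine synthase gene, fell by 0.50 on the log2 scale, and all of them were set apart.

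Targets of ATF4, the transcription factor of the integrated stress response, were raised modestly under DZ. Of 37 measured, 20 rose and 4 fell, with a median of 0.14. Upward, 18 were set apart and none downward (48.6% of the list), against 8.40% upward and 6.93% downward of all genes. The median of their differences from CTL was -0.31 under adenine and -1.54 under SAM. DZ lay above SAM by a median of 1.77, so most of that distance was the fall under SAM. Slc7a5, a subunit gene of the large neutral amino acid transporter, was at 9.17, 9.10, and 9.14 log2 CPM in CTL and 9.63, 9.68, and 9.66 in DZ, a rise of 0.52 (SE 0.03, adjusted p = 1.87e-09), against 8.97 to 9.02 under adenine and 6.85 to 6.94 under SAM. Aldh18a1, which encodes the first enzyme of proline synthesis, rose by 0.43. Atf5 fell by 0.65 on the log2 scale, and Atf4 itself, named after its value was seen, differed by -0.02 (adjusted p = 0.534). The 20 that rose, none by more than 0.52, included tRNA synthetase genes such as Gars1 (0.32) and Cars1 (0.32), which were also named after their values were seen.

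Genes for ribosomal proteins and for the assembly of ribosomes moved in opposite directions. Of 79 cytosolic ribosomal protein genes, 75 fell and none rose, with a median of -0.55, and none was set apart. Their median difference from CTL was -1.11 under adenine and -0.91 under SAM. Rpl3 was at 10.35, 10.41, and 10.36 log2 CPM in CTL and 9.67, 9.70, and 9.70 in DZ (difference -0.68, SE 0.028, adjusted p = 6.56e-11), Rps19 differed by -0.80, and Rpl22 by -0.63. These genes have many processed pseudogenes that could share their reads. Of the 986 processed pseudogenes in the table, 381 (38.6%) fell and 53 (5.38%) rose, with a median of -0.201. Their median difference from CTL was lower still under adenine (-0.329) and SAM (-0.367).

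A list of 114 genes of ribosome biogenesis and RNA polymerase I was added after some of its members had been seen to rise, so its direction is a description. Of these, 77 rose and 3 fell, with a median of 0.20, and 62 were set apart upward and none downward. Polr1g, an RNA polymerase I subunit gene, was at 4.47, 4.58, and 4.59 log2 CPM in CTL and 5.35, 5.29, and 5.42 in DZ, a rise of 0.81 (SE 0.054, adjusted p = 8.99e-09). Bysl, needed for the small subunit, rose by 0.79 (SE 0.06) and Rrp12 by 0.69 (SE 0.045). Npm1, the abundant nucleolar protein gene, fell by 0.51 on the log2 scale. The median difference of the list from CTL was -0.19 under adenine and -0.34 under SAM.

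**Figure D4:**
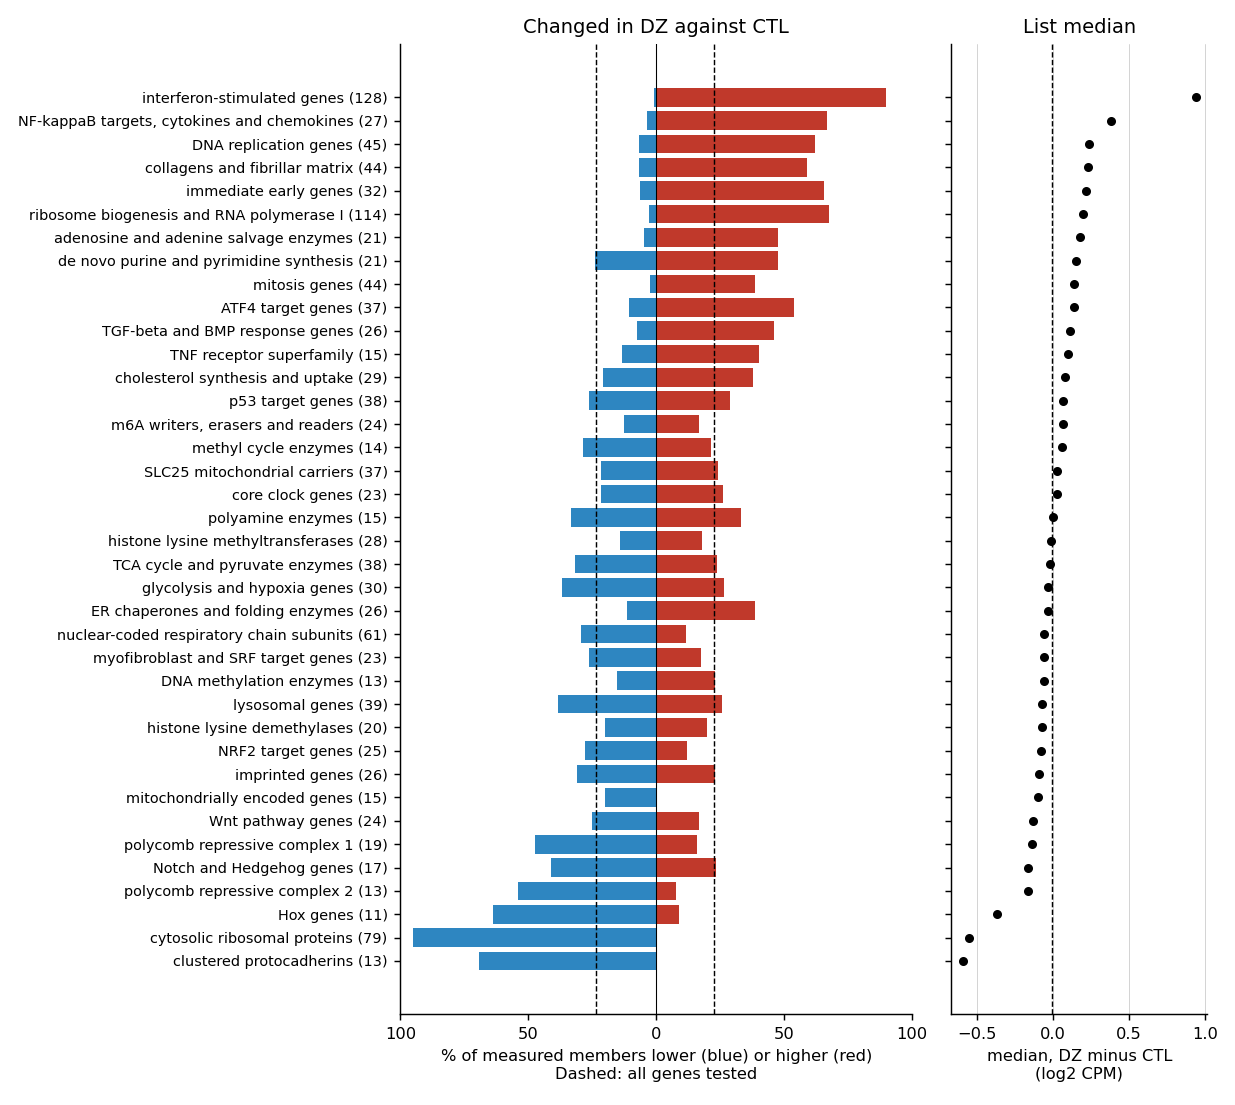
Share of measured members (number in brackets) of each gene list that were higher (red) or lower (blue) in DZ than in CTL, and the list median (log2 CPM), with dashed lines for all 12591 genes (22.6% higher, 23.4% lower). Interferon genes are at the top with a median of 0.94, and protocadherins and ribosomal proteins are at the bottom with -0.59 and -0.55.

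Genes of inflammation, growth factor response, and matrix were mostly higher under DZ, in large part without being set apart. Of 27 NF-κB targets and cytokines, 18 rose and 1 fell (70.4% called, against 45.9% of all genes, median 0.38), and 3 were set apart. Cxcl5, a neutrophil chemokine gene, was at 5.68, 5.71, and 5.75 log2 CPM in CTL and 6.93, 7.04, and 6.92 in DZ (rise of 1.25, SE 0.043, adjusted p = 8.57e-12), and reached a mean of 7.47 under SAM. C3, the complement component gene, rose by 1.17 and Cx3cl1 by 0.61. Of 32 immediate early genes, 21 rose and 2 fell (71.9% called, median 0.22). Among them were Spry1, an inhibitor gene of growth factor signalling (1.14), Jun (0.58), and Klf6 (0.35). Of 44 collagen and matrix genes, 26 rose and 3 fell (65.9% called, median 0.23), with Col8a1 at 1.05 and Col5a3 at 0.97.

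Contractile genes had no common direction. Of 23 myofibroblast and SRF target genes, 4 rose, Ankrd1 among them, and 6 fell (43.5% called, against 45.9% of all genes). Tagln, a smooth muscle actin-binding protein gene, was at 9.33 log2 CPM in each CTL dish and 8.63, 8.70, and 8.68 in DZ (difference -0.66, SE 0.03, adjusted p = 2.13e-10), and Tpm2, a tropomyosin gene, differed by -0.48. In the TGF-β and BMP list 12 of 26 rose and 2 fell (53.8% called). Grem1 and Bmp4 (0.81) were at the top and Ltbp4 at the bottom. Of 17 Notch and Hedgehog genes, 7 fell and 4 rose (64.7% called). Lfng, which encodes a glycosyltransferase of Notch, and Notch3 were set apart at -0.91 and -0.49. Of 24 Wnt genes, 6 fell and 4 rose (41.7% called). Sfrp2, a secreted Wnt antagonist gene, was up by 1.47 but higher still under adenine (mean 6.83, against 5.98 in DZ), and Wnt10b was set apart at -0.57.

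DNA replication genes rose in DZ (28 of 45 higher and 3 lower, 68.9% called, median 0.24). So did 17 of 44 mitosis genes, with 1 lower (40.9% called, median 0.14). None of either list was set apart upward, and their median differences from CTL under adenine were 1.28 and 1.66. Rrm1, the large subunit gene of ribonucleotide reductase, rose by 0.48, Mcm3, of the replicative helicase, by 0.48, and Tpx2, a spindle factor gene, by 0.54. Of 38 p53 targets, 11 rose and 10 fell (55.3% called, against 45.9% of all genes). Ccng2, a cyclin gene linked to cell cycle exit, was at 5.82, 5.79, and 5.75 log2 CPM in CTL and 5.06, 5.09, and 5.04 in DZ (difference -0.72, SE 0.036, adjusted p = 3.87e-10) and above CTL under adenine (mean 6.01) and SAM (6.24). Of 15 genes of the TNF receptor family, 6 rose and 2 fell (53.3% called). Fas, a death receptor gene, rose by 0.63 and was set apart. Tnfrsf25, another death receptor gene, was set apart downward. It was at 3.68, 3.66, and 3.62 in CTL and 2.45, 1.78, and 2.01 in DZ, a difference of -1.57 (SE 0.13, adjusted p = 6.6e-08), and its means under adenine (4.39) and SAM (3.95) were above CTL.

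Metabolic lists had no common direction. Among 25 NRF2 targets, 7 fell and 3 rose (40.0% called, against 45.9% of all genes). Tkt, which encodes transketolase of the pentose phosphate pathway, was at 8.72, 8.71, and 8.72 log2 CPM in CTL and 7.80, 7.82, and 7.84 in DZ, a difference of -0.90 (SE 0.025, 0.538-fold, adjusted p = 1.15e-12), with adenine dishes at 8.07 to 8.11 and SAM dishes at 8.69 to 8.73. Gstm1, a glutathione transferase gene, differed by -0.70. Of 38 citric acid cycle and pyruvate genes, 9 rose and 12 fell (55.3% called), with Pcx, the pyruvate carboxylase gene, up by 1.07. Of 37 SLC25 carriers, 9 rose and 8 fell (45.9% called). Nuclear-coded subunits of the respiratory chain fell in 18 and rose in 7 of 61 (41.0% called, median -0.06), Uqcrh being set apart at -0.73. Of 15 mitochondrially encoded genes, 3 fell (mt-Rnr1 at -0.42, mt-Nd5 at -0.25, and mt-Rnr2 at -0.18) and none rose. The call of mt-Rnr2 (adjusted p = 0.00827 in limma) was lost without CTL replicate 2 or 3 or DZ replicate 1 or 2, where the adjusted p was 0.0109 to 0.0511, and also without the variance trend (0.0272) and with plain read totals (0.0203). Of 30 glycolysis and hypoxia genes, 8 rose and 11 fell (63.3% called, against 45.9% of all genes). Of 29 cholesterol genes, 11 rose and 6 fell (58.6% called), and of 39 lysosomal genes, 10 rose and 15 fell (64.1% called). Of 26 ER chaperone genes, 10 rose, 3 fell, and 13 did not pass the test. The median of the ER chaperone genes was -0.03, with 14 of the 26 below 0.

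Clock genes were measured because the cells carry a clock reporter. Of 23 measured, 6 rose and 5 fell (47.8% called, against 45.9% of all genes), with a median of 0.03. Dbp, a direct output of the clock, was at 4.26, 4.10, and 4.16 log2 CPM in CTL and 3.22, 3.12, and 3.22 in DZ, a difference of -0.99 (SE 0.069, adjusted p = 1.48e-08), and lower still under adenine (mean 2.82). Per3 was at 4.28, 4.23, and 4.07 in CTL and 3.27, 3.64, and 3.53 in DZ (difference -0.72, SE 0.084, adjusted p = 3.65e-06) and was set apart. Nfil3, a repressor of the same sites as Dbp, rose by 0.40 and was set apart as well. Csnk1d, which encodes casein kinase 1 delta, rose by 0.14 (7.28 to 7.30 in CTL, 7.43 to 7.45 in DZ, adjusted p = 0.00107), the table giving no isoforms. Per2 was at 2.01 to 2.27 in CTL and 1.99 to 2.01 in DZ (adjusted p = 0.497). All dishes were collected at a single time, so phase and level cannot be told apart.

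The promoters of the genes set apart upward were searched for short motifs. These genes share a direction by the rule that chose them. The window was 250 bases before to 50 bases after the start of the GENCODE vM39 canonical transcript, on GRCm39, and both strands were read. CACGTG (E-box), the site of basic helix-loop-helix factors such as MYC and CLOCK, was present in 143 of 973 such promoters (14.7%), interferon genes excluded, against 1210 of 12574 (9.62%) over all genes and 82 of 872 (9.40%) of the genes set apart downward with an annotated promoter. Over 5 equal bins by level, from lowest to highest, its share was 6.61%, 8.43%, 10.0%, 11.6%, and 11.5% of all genes. Among the genes set apart upward it was 13.2%, 18.3%, 15.2%, 14.3%, and 13.6% (38, 109, 223, 272, and 331 promoters). The highest bins hold the most genes set apart upward, and there the difference was smaller than without bins. Without the ribosome biogenesis list the share among genes set apart upward was 14.4%. TGACGTCA (CRE) was present in 4.52% of the genes set apart upward, 1.95% of those set apart downward, and 3.05% of all. GAAANNGAA, the core of the interferon-stimulated response element (ISRE), was found in 32.8% of the interferon list but in 7.81% of the other genes set apart upward, against 7.99% of all. TGACNNNGC (ARE, 13.1% against 13.5% of all) and TTTCCCGC (E2F site, 1.54% against 1.84% of all) differed less. Matches may overlap, as CACGTG ends with the TG that opens CRE and ARE, which share their first 4 bases. A match describes these letters and does not show a site in use.

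**Figure D5:**
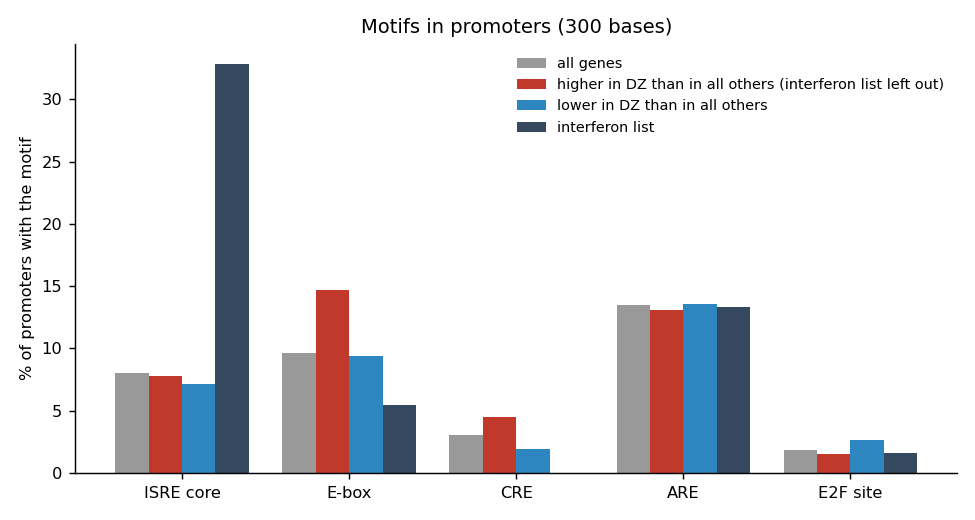
Share of promoters (%, y axis) that hold each of 5 motifs, for all genes, for genes higher or lower in DZ than in every other group, and for the interferon list. The E-box bar of the genes higher in DZ (14.7%) stands above that of all genes (9.62%), whereas the ISRE core is frequent in the interferon list alone (32.8%). The bars are not matched for level.

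The upstream 250 bases are shown for the 5 named genes that were set apart upward and hold an E-box there, and for Tmem140, which holds an ISRE core near its start. They are written 5′ to 3′ on the strand of the gene, ending at the base before the transcript start, with every match of the 5 motifs in capitals.
Slc7a5 (chr8:122634434-122634683, minus strand): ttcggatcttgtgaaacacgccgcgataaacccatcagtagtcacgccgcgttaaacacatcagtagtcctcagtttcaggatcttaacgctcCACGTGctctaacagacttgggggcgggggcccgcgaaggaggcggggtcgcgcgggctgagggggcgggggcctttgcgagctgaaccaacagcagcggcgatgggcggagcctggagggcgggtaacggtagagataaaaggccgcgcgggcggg
Aldh18a1 (chr19:40576908-40577157, minus strand): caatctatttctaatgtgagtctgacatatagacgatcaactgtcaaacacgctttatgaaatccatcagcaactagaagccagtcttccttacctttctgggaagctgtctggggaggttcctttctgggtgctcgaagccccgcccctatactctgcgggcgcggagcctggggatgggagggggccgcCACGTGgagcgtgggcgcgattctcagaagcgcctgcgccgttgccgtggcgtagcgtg
Gadd45g (chr13:52000464-52000713, plus strand): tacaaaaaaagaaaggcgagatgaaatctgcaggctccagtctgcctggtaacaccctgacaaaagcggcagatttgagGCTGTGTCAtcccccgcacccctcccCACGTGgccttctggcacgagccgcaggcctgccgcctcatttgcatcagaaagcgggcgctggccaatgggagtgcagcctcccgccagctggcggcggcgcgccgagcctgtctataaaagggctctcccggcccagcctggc
Fas (chr19:34267809-34268058, plus strand): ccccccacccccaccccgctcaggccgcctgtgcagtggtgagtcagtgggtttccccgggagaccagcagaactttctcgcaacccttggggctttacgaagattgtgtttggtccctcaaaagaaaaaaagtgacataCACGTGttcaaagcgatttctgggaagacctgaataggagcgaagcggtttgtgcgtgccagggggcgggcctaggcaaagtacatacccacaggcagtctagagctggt
Pcgf5 (chr19:36324796-36325045, plus strand): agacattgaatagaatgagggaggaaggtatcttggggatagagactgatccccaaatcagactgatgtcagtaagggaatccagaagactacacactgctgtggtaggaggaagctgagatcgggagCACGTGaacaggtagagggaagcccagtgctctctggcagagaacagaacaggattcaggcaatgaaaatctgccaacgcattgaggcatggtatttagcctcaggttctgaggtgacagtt
Tmem140 (chr6:34839780-34840029, plus strand): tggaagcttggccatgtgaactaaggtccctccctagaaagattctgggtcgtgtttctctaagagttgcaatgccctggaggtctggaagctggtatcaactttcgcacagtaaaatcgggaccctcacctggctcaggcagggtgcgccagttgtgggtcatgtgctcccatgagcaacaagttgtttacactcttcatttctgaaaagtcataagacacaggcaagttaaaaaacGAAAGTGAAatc
Counted from the transcript start, the first base of the E-box lies at -157 in Slc7a5, -59 in Aldh18a1, -145 in Gadd45g, -110 in Fas, and -122 in Pcgf5, and in Gadd45g an ARE is also marked. An E-box in this window was not limited to genes that rose, as Lfng, Epop, and Sms, which were set apart downward, hold it too.

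Transcript properties were only weakly related to the change in protein-coding genes. By number of exons, 27.7% of genes in the lowest of 5 equal bins (1 to 4 exons) were higher and 18.9% lower, whereas in the highest bin (17 to 146 exons) 20.1% were higher and 25.0% lower. By GC content of the transcript, the highest bin (55.9% to 80.6%) held more genes set apart downward (12.3%) than the other bins (5.98% to 7.95%). By the CpG ratio of the promoter, 10.2% of the lowest bin and 5.84% of the highest were set apart downward. Long noncoding RNAs fell in 108 of 275 (39.3%, against 23.4% of all genes) and rose in 25 (9.09%, against 22.6%), with a median of -0.245. Their median difference from CTL was -0.114 under adenine and -0.383 under SAM.

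Genes of the X chromosome tended to be lower, which was noticed in the data. Of 351 protein-coding X-linked genes, 122 (34.8%) fell and 53 (15.1%) rose, whereas 2221 of 10582 autosomal ones fell and 2685 (25.4%) rose. Their median was -0.078, whereas the medians of single autosomes lay between -0.012 and 0.037, and 50 were set apart downward and 18 upward. The X-linked medians of the differences from CTL were 0.05 under adenine and 0.038 under SAM. Among named genes, Rbmx, Sms, and Pdha1 (-0.40) are X-linked genes that fell, and Rtl3 is one that rose. These falls were not confined to DZ, and only that of Sms was set apart. Differences from CTL under adenine and SAM were -0.52 and -0.99 for Rbmx, -0.25 and -0.18 for Sms, and -0.42 and -0.49 for Pdha1. The labels do not give the sex of the embryos.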

How the data were processed

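Reads were trimmed (Trimmomatic), mapped to GRCm39 (HISAT2, GENCODE vM27) and quantified (StringTie) by the authors, who then used edgeR on the genes that reached 1 CPM in every library. The deposited table holds log2 CPM on normalized library sizes for 12591 genes in 12 libraries. Tool versions and the scaling method are not given in the sources used here, and the libraries were stranded. Reads were recovered from these values with a prior count of 2 to obtain the depth (100% within 0.05 of a whole read), and rest on the coverage that StringTie gives.

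The main test was that of limma 3.58.1 under R 4.3.3 (lmFit and eBayes with a variance trend), with 1 model of 4 groups, with Benjamini-Hochberg adjustment over all genes and an FDR of 0.01. A gene set apart had DZ differing in 1 direction from the 3 other groups, with the largest of 3 p-values adjusted. On simulated data with 200 changed genes of 12591, 86.5% were recovered for DZ against CTL (0.575% of calls false) and 82.5% for the genes set apart (0% false). The simulation used normal noise and a few fixed sizes of change, in DZ alone, with nothing changed under adenine or SAM. In the data 45.9% of genes were called, with a median absolute difference of 0.33, so these rates do not carry over to them. Exact permutation of 3 against 3 dishes cannot go below p = 0.1. Fold changes carry the prior count, which understates those of low genes.

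Named genes are protein-coding, outside the interferon list, at 3 log2 CPM or more on average, with no overlap between DZ and CTL dishes. They are the 12 largest rises and falls among genes set apart, the 6 largest against CTL, up to 3 genes of each of 43 lists with the smallest adjusted p (without these limits), and Ahcy, Mat2a, Ezh2, Eed, Suz12, Mettl3, Dnmt1, Csnk1d, and Per2. Members and lists were chosen with earlier results of these data known. Symbols, positions, and promoters come from GENCODE vM39, in which 12575 genes matched. Python 3.11.15 was used for tables. No pairing of the dishes by replicate number was seen. Pearson r across genes of same-numbered CTL and DZ libraries was -0.0445, 0.0889, and 0.0424, against -0.122 to 0.0938 for unlike numbers. Low correlations alone cannot exclude pairing. Alternatives covered the scaling, the variance trend, low-value filters, a pseudocount of 1 CPM, voom on recovered reads, the threshold, a replicate block, and leaving out each library.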

Additional observations from a re-analysis of the deposited data

How the results depend on the processing

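The counts of genes changed, higher, and lower stayed within 1.5 times of those reported under every alternative but 1, a minimum size of 1 for the log2 difference. That alternative left 240 genes against CTL (149 higher, 91 lower) and, when asked of all 3 differences, 86 set apart (64 higher, 22 lower), by its own construction. With the replicate block, 5762 genes differed from CTL and 1953 were set apart, and the block changed no call of a named gene. Leaving out 1 library at a time gave 4953 to 6286 genes against CTL (2408 to 3062 higher, 2525 to 3224 lower) and 1561 to 2186 set apart (861 to 1185 higher, 700 to 1001 lower), where the fits without an adenine or SAM library were chosen after seeing the data. Of 144 named genes, 142 kept their call against CTL in every alternative in which they were tested, and none reversed. These counts leave out the changed thresholds. A minimum log2 difference of 1 would drop many named genes, such as Ahcy and Ezh2 (-0.24 each). The calls of Eed and mt-Rnr2 were lost in some of the alternatives counted. Set-apart calls of single genes are not part of these counts. Of 42 list and class medians, 6 changed sign in at least 1 alternative, all of them within 0.06 of 0. The set-apart test could not be run on CTL and DZ libraries alone. The share of E-box promoters stayed between 14.2% and 15.8%, and the X-linked median between -0.093 and -0.053. As the table holds the genes that reached 1 CPM in every library, genes that DZ turned on from below this level, or off, are not analysed here.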
